A study of Mus musculus with 4 samples.

Results

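Cells that carried transcripts of nephron progenitors and of kidney stroma in the same droplet were examined in newborn mouse kidney. A kept barcode had at least 1000 UMIs (unique molecular identifiers, each counting 1 captured transcript) and 500 genes, and a mitochondrial share under 15%. A mixed-marker cell had at least 3 of the 5 progenitor genes Six2, Cited1, Eya1, Crym and Spock2 detected, at least 1 UMI of the stroma genes Foxd1 and Pdgfra together, and no UMI of Lhx1, a marker of the committed nephron. This rule found 1830 of 36833 kept barcodes, 1247 in the control library and 583 in the floxed library. The rule uses measured values, so the levels of these 8 genes describe the choice and are not findings.

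The control library came from kidneys of newborn Six2Cre mice, in which the Six2 driver places Cre recombinase in nephron progenitors. The floxed library came from newborn Six2CreTet2/3f/f mice, which carry the same Cre together with floxed alleles of Tet2 and Tet3, the enzymes that oxidise methylcytosine. Both groups carry Cre, and each genotype had 1 library, so differences between genotypes have no replicate check and the intervals reflect counting error alone. Whole-genome bisulfite samples of sorted progenitors belong to the same study and were not analysed here.

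In the newborn kidney, Six2-positive progenitors form a cap around each ureteric bud tip and either renew or are induced by Wnt signals to form nephrons. Foxd1-positive stroma surrounds the cap and gives rise to interstitial fibroblasts, mural cells and mesangium. Both lineages descend from Osr1-positive intermediate mesoderm, and Foxd1 is also a known gene of podocytes. Pdgfra encodes a receptor for platelet-derived growth factor and marks interstitial fibroblasts. A droplet that captures 2 cells also carries markers of both.

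Groups chosen by the same form of rule served for comparison. Progenitor-only cells had at least 3 of the 5 progenitor genes and no UMI of Foxd1, Pdgfra or Lhx1 (789 control and 616 floxed cells). Stroma-only cells had a Foxd1 or Pdgfra UMI, none of the 5 progenitor genes, no Lhx1 and fewer than 2 podocyte marker UMIs (3770 and 3036 cells). On the GRCm38 assembly Foxd1 lies on chromosome 13 (98354245 to 98356705) and Pdgfra on chromosome 5 (75151322 to 75198206). Six2 and Six3 are neighbours on chromosome 17, at 85662736 to 85688254 and 85613608 to 85626191.

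The libraries held 197745868 control and 115427704 floxed UMIs, and kept barcodes had medians of 6213 and 4898. The 25736 and 22543 deposited barcodes exceed the 10000 cells loaded for each library. The libraries shared 174 barcode sequences, 99 of them kept in both, and no barcode was a mixed-marker cell in both. Doublet scores were computed with scrublet, which simulates doublets from the library itself. The automatic call marked 10.5% of control barcodes (2228) and none of the 15645 floxed ones, where it had therefore not worked. No doublets were removed.

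Most cells with progenitor genes met the rule in the control. Mixed-marker cells were 61.2% of the 2036 control cells with at least 3 progenitor genes and no Lhx1 (95% Clopper-Pearson interval 59.1 to 63.4). They were 48.6% of 1199 such cells in the floxed library (45.8 to 51.5). When every cell was first thinned to 3000 UMIs, the share was 27.3% (171 of 626 cells, 23.9 to 31.0) in the control and 23.0% (124 of 538, 19.6 to 26.8) in the floxed library. The intervals of the libraries overlapped at equal depth.

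Foxd1 was the gene that brought most cells in. In the control, 909 members had Foxd1 UMIs and none of Pdgfra, 114 had Pdgfra only and 224 had both. The floxed numbers were 343, 125 and 115. Members with a Pdgfra UMI therefore made up 27.1% of control members (24.7 to 29.7) and 41.2% of floxed members (37.1 to 45.3). With Pdgfra as the only stroma gene in the rule, the order of the libraries turned, at 16.6% of progenitor-gene cells in the control and 20.0% in the floxed library.

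Many members stood close to the threshold. A single stroma UMI admitted 555 of 1247 control members (44.5%) and 317 of 583 floxed members (54.4%), while 114 and 44 members had 5 or more. Members with exactly 3 progenitor genes numbered 474 and 234. All 5 progenitor genes were detected in 287 and 142.

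Progenitor genes that the rule did not use were also measured. Members and progenitor-only cells were both chosen by at least 3 progenitor genes and stroma-only cells by the absence of all 5. The 3 genes given here are also among the 5 named for the highest ratios of members over stroma-only cells. Their levels are therefore a description and do not test the label. Six3, a homeobox gene beside Six2, stood at 235 CPM (UMIs of the gene per 1e6 UMIs of the group) in control members, against 238 CPM in progenitor-only and 9.70 CPM in stroma-only cells. Its floxed level was 242 CPM in members, 278 CPM in progenitor-only and 9.08 CPM in stroma-only cells. Uncx, another homeobox gene of the cap, stood at 205 CPM in control members against 210 CPM and 18.3 CPM in the respective single-identity groups. Rspo1, a secreted Wnt enhancer, stood at 158 CPM in control members, 169 CPM in progenitor-only and 12.8 CPM in stroma-only cells. Over all control members these 3 genes were thus close to the progenitor-only level, but the 2 kinds of member differed. Six3 stood at 175 CPM in control and 199 CPM in floxed Pdgfra-bearing members, against 263 and 285 CPM in members with Foxd1 alone. Relative to progenitor-only cells, the ratio of Six3, Uncx and Rspo1 in Pdgfra-bearing members was 0.735, 0.792 and 0.711 in the control and 0.715, 0.634 and 0.695 in the floxed library, each with an interval below 1. The 5 progenitor genes of the rule, given as a description, had ratios of 0.655 to 0.786 and 0.653 to 0.782 in these members.

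Over 15 progenitor genes outside the rule, the summed level was 1722 CPM in control members, 1648 CPM in progenitor-only and 687 CPM in stroma-only cells. The floxed values were 1918, 1981 and 780 CPM. The sum was 1829.6 CPM in control and 2084 CPM in floxed members with Foxd1 alone, and 1489 and 1749 CPM in Pdgfra-bearing members. Genes of nephron commitment were not higher in members. Of 10 commitment genes, none had a counting interval above progenitor-only cells in either library, and 3 control and 2 floxed genes lay below. Wnt4, the signal of nephron induction, stood at 362 CPM in control members and 398 CPM in progenitor-only cells, and at 334 and 367 CPM in the floxed library.

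For the stroma side, 18 stroma genes outside the rule were summed and placed on a scale on which 0 is the level of progenitor-only cells and 1 that of stroma-only cells of the same library. The sum was 2180 CPM in control members, between 1297 CPM in progenitor-only and 6169 CPM in stroma-only cells, a position of 0.181 (0.177 to 0.186). In floxed members it was 2621 CPM, between 1424 and 6025 CPM, a position of 0.260 (0.251 to 0.269). The stroma genes of the members as a whole were thus much closer to progenitor-only than to stroma-only cells.

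That average covered members of very different content. Members with Foxd1 UMIs only had a stroma position of 0.0058 in the control (0.0016 to 0.010, 909 cells) and 0.013 in the floxed library (0.0040 to 0.023, 343 cells). Members with a Pdgfra UMI had a position of 0.560 (0.549 to 0.571, 338 cells) and 0.512 (0.497 to 0.527, 240 cells). Members with at least 2 Pdgfra UMIs reached 0.783 (127 cells) and 0.650 (113 cells). Progenitor-only and Foxd1-only cells both lack Pdgfra by construction, and this split was chosen after the data were seen.

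The stroma position was also set against the number of Foxd1 UMIs. The 480 control members with 1 Foxd1 UMI and no Pdgfra had a position of -0.0077 (-0.014 to -0.0012), and the 429 with 2 or more had 0.016 (0.0099 to 0.021), so these intervals did not overlap. In the floxed library the values were 0.017 (0.0053 to 0.028, 245 cells) and 0.0064 (-0.0099 to 0.023, 98 cells), with overlapping intervals. The 43 control and 5 floxed members with at least 5 Foxd1 UMIs and no Pdgfra had positions of -0.021 and -0.026. Among stroma-only cells, those with Foxd1 and no Pdgfra UMI lay at 0.467 in the control (963 cells) and 0.486 in the floxed library (592 cells). Foxd1-only members thus also stood apart from stroma-only cells selected in the same way.

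**Figure D1:**
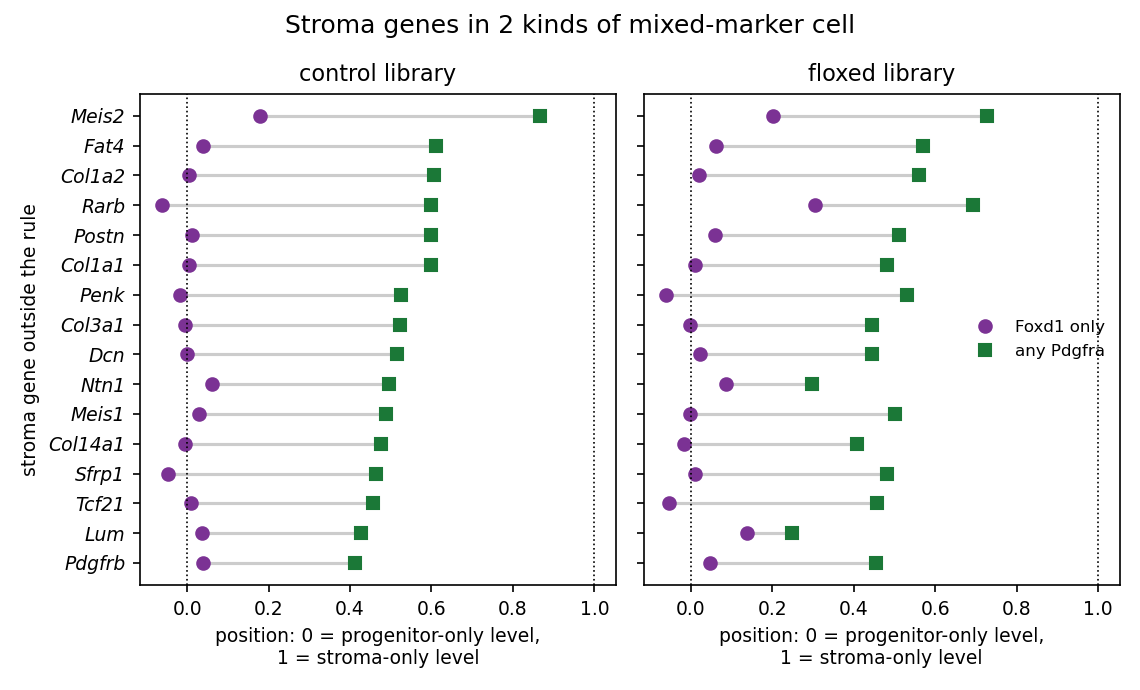
Position of 16 stroma genes outside the rule (vertical axis) in members with Foxd1 UMIs only (circles) and members with a Pdgfra UMI (squares), in the control (left) and floxed (right) library. On the horizontal axis 0 is the CPM of progenitor-only cells and 1 that of stroma-only cells; Aldh1a2, whose order is reversed, and Tbx18, with few UMIs, are not drawn. Most circles gather near 0, with Meis2 and floxed Rarb farther out, and each square lies to the right of its circle.

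Fibrillar collagens showed the split most plainly. Col3a1, a collagen of interstitial fibroblasts, stood at 125 CPM in progenitor-only cells, 119 CPM in Foxd1-only members, 699 CPM in Pdgfra-bearing members and 1221 CPM in stroma-only cells of the control. The floxed values in the same order were 143, 140, 606 and 1186 CPM. Col1a1 stood at 66.6, 69.7, 421 and 660 CPM in the control and at 73.0, 77.9, 311 and 569 CPM in the floxed library. In both genes Foxd1-only members were close to the progenitor-only level.

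Transcription factors and secreted proteins of the stroma showed the same split, with Pdgfra-bearing members between Foxd1-only members and stroma-only cells. Penk in both libraries and Tcf21 in the floxed library were lower in Foxd1-only members than in progenitor-only cells. Meis1, a homeobox factor of renal stroma, stood at 28.4 CPM in progenitor-only cells, 34.0 CPM in Foxd1-only members, 125 CPM in Pdgfra-bearing members and 226 CPM in stroma-only cells of the control. The floxed levels of Meis1 were 36.1, 35.8, 131 and 225 CPM. Penk, which encodes the opioid precursor proenkephalin, stood at 70.8, 60.8, 374 and 648 CPM in the control and at 108, 62.8, 503 and 853 CPM in the floxed library. Tcf21, a basic helix-loop-helix factor of stroma and podocytes, stood at 25.5, 27.1, 97.5 and 183 CPM in the control and at 49.6, 38.8, 143 and 254 CPM in the floxed library.

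Aldh1a2 departed from this split, and in Meis2 the groups lay closer together. Meis2 stood at 409 CPM in progenitor-only cells, 440 CPM in Foxd1-only members, 562 CPM in Pdgfra-bearing members and 585 CPM in stroma-only cells of the control. Aldh1a2, a retinoic acid synthesis enzyme, was higher in progenitor-only cells (225 CPM control, 287 CPM floxed) than in stroma-only cells (138 and 128 CPM). Counted by gene, 3 of the 18 stroma genes in Foxd1-only members had an interval above progenitor-only cells in each library and 2 an interval below. In Pdgfra-bearing members 17 of 18 control genes and 16 of 18 floxed genes lay above.

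The same split appeared cell by cell at equal depth. At 3000 UMIs, progenitor-only cells had on average 2.44 of the 18 stroma genes in the control and 2.59 in the floxed library. Foxd1-only members had 2.44 and 2.61, Pdgfra-bearing members 5.46 and 5.55, and stroma-only cells 6.73 and 6.83. At least 5 of the stroma genes were present in 9.48% and 10.2% of Foxd1-only members, 8.38% and 11.7% of progenitor-only cells, 66.3% and 65.4% of Pdgfra-bearing members and 82.7% and 84.4% of stroma-only cells. Foxd1-only members therefore held about as many stroma genes as progenitor-only cells in each library.

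**Figure D2:**
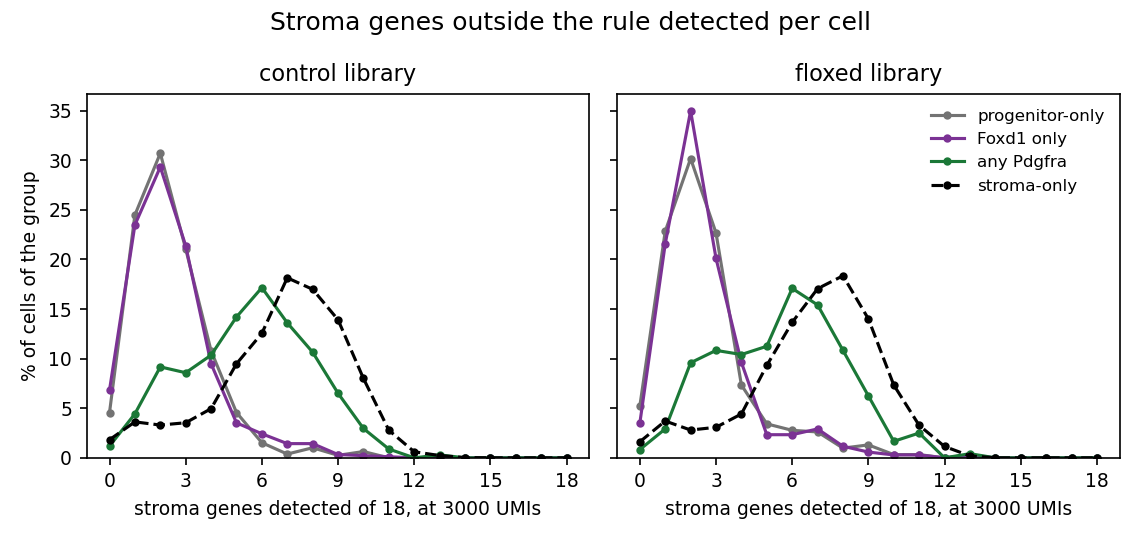
Percent of cells (vertical axis) by the number of 18 stroma genes outside the rule detected after thinning to 3000 UMIs (horizontal axis), control left and floxed right. The curves of Foxd1-only members and progenitor-only cells lie on each other, and the curve of Pdgfra-bearing members lies towards stroma-only cells.

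Values just inside and outside the rule differed in steps. Cells with a stroma UMI, no Lhx1 and only 2 progenitor genes (491 control and 245 floxed cells) had a stroma position of 0.393 and 0.367. Members with exactly 3 progenitor genes had 0.264 and 0.304, those with 4 had 0.154 and 0.279, and those with 5 had 0.131 and 0.179. Cells with exactly 3 progenitor genes and no stroma UMI lay at 0.0010 and 0.021.

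UMI depth was compared with single-identity cells because 2 cells in a droplet add their transcripts. The median was 11341 UMIs in control members (10866 to 11797), 8125 in progenitor-only and 5757 in stroma-only cells. In the floxed library it was 9077 (8569 to 9580), 6694 and 4537.5 UMIs. Members thus had 1.40 times the depth of progenitor-only cells in the control and 1.36 times in the floxed library. The sum of the single-identity medians was 13882 and 11231.5 UMIs, and the members' median was 0.817 and 0.808 of it. Members above that sum were 36.7% and 30.4%, against 12.5% and 11.04% of progenitor-only cells.

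Depth followed the same split as the stroma genes. Foxd1-only members had medians of 10218 and 7542 UMIs, 1.26 and 1.13 times the progenitor-only value. Pdgfra-bearing members had 14553.5 and 10819 UMIs, 1.79 and 1.62 times that value, and those with at least 2 Pdgfra UMIs had 2.04 and 1.82 times. Members without a UMI of Mki67, Top2a or Cenpf had 1.15 times the depth of progenitor-only cells without one in both libraries.

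The rule itself favours deep cells, since a deeper cell gives more chances of a stroma UMI. When it was applied to cells thinned to 3000 UMIs, the original median depth of the cells it called was 1.02 times that of progenitor-only cells in each library. Among cells called this way, those with Foxd1 only had 0.997 (0.940 to 1.07) and 0.971 times (0.917 to 1.03) the progenitor-only depth. Those with a Pdgfra UMI had 1.46 times (1.03 to 1.95, 25 cells) and 1.43 times (1.18 to 1.55, 35 cells). Their stroma positions were 0.375 and 0.462, against 0.0865 and -0.0466 for the Foxd1-only calls. At matched detection, a greater depth was thus measured in Pdgfra-bearing calls alone.

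**Figure D3:**
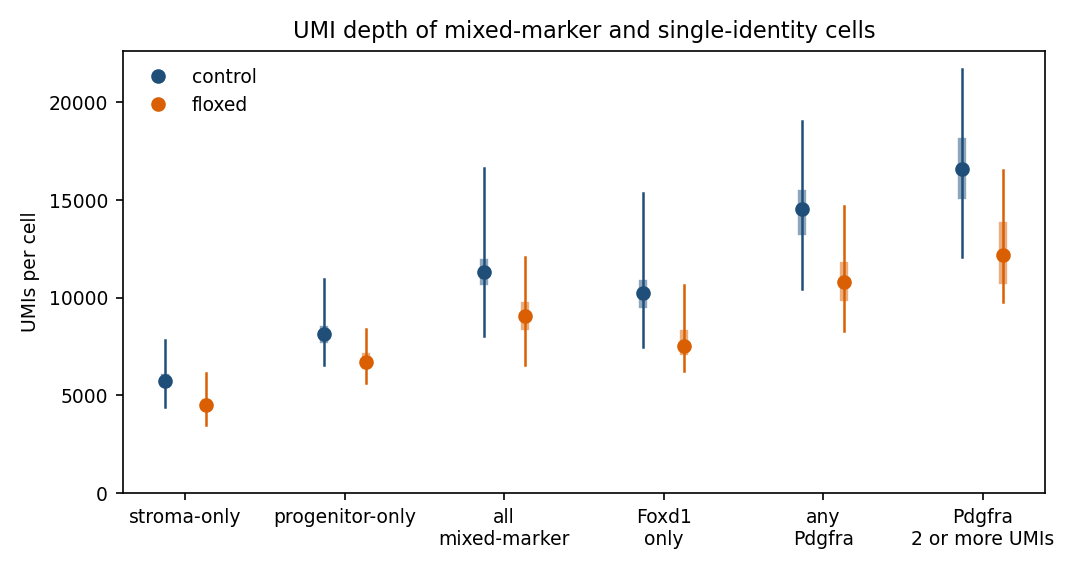
UMIs per cell (vertical axis) in stroma-only and progenitor-only cells, all mixed-marker cells and 3 subsets of them (horizontal axis), control in blue and floxed in orange. Points are medians, thin lines the middle 50% of cells and thick lines the 95% interval of the median. Pdgfra-bearing members lie highest in both libraries.

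Scrublet scores had the same order. The median score was 0.0229 in control and 0.0254 in floxed progenitor-only cells, and 0.0241 and 0.0264 in Foxd1-only members. Pdgfra-bearing members had medians of 0.114 and 0.116. Stroma-only cells had 0.0298 and 0.0311. The top 8% of scores in each library held 13.8% of control members and 16.5% of floxed members, against 8.49% and 8.93% of progenitor-only cells and 6.74% and 6.29% of stroma-only cells. With that top 8% left out of every group, the members' stroma position was 0.146 in the control and 0.240 in the floxed library. The part of doublets in the Pdgfra-bearing members was not tested beyond these values.

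Foxd1 and Pdgfra were then measured in all cells with at least 3 progenitor genes and no Lhx1, whatever their stroma UMIs. Their Foxd1 level was 90.5 CPM in the control (86.7 to 94.3) and 66.6 CPM in the floxed library (61.8 to 71.7). It was nearly flat over depth, at 89.0, 92.6, 89.0 and 90.5 CPM in control cells of 3000 to 6000, 6000 to 10000, 10000 to 20000 and at least 20000 UMIs. The floxed levels of Foxd1 in these bins were 63.9, 60.0, 74.1 and 69.8 CPM. Pdgfra in the same bins stood at 3.79, 14.0, 31.3 and 23.4 CPM in the control and at 14.6, 32.9, 61.5 and 66.0 CPM in the floxed library. The shallowest bin thus had the lowest Pdgfra level in both libraries and a Foxd1 level like that of the deeper bins in the control.

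Free RNA can give every cell type some stroma UMIs, so cells with at least 3 of 5 endothelial genes were measured in the same way. Foxd1 was detected in 55.6% of control progenitor-gene cells (median 9695 UMIs) and in 10.5% of endothelial-gene cells (median 5505 UMIs). In the floxed library the shares were 38.2% (7519 UMIs) and 6.15% (3788 UMIs). Pdgfra was detected in 16.6% against 11.9% of these cells in the control and in 20.0% against 9.92% in the floxed library. At 6000 to 10000 UMIs, where the groups are compared at like depth, the Foxd1 level was 92.6 against 28.1 CPM in the control and 60.0 against 28.0 CPM in the floxed library. Pdgfra in that bin was 14.0 against 33.1 CPM and 32.9 against 50.8 CPM. At 10000 to 20000 UMIs Pdgfra was 31.3 against 29.9 CPM in the control and 61.5 against 48.3 CPM in the floxed library, and at 20000 UMIs or more it was 23.4 against 20.9 CPM and 66.0 against 10.7 CPM. Foxd1 was thus above the endothelial-gene level at 6000 to 10000 UMIs, while Pdgfra was below it there. In deeper cells Pdgfra was close to that level in the control. It was higher in the floxed library, where the deepest endothelial-gene bin held 5 Pdgfra UMIs in 17 cells. Intervals of these levels were not computed.

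**Figure D4:**
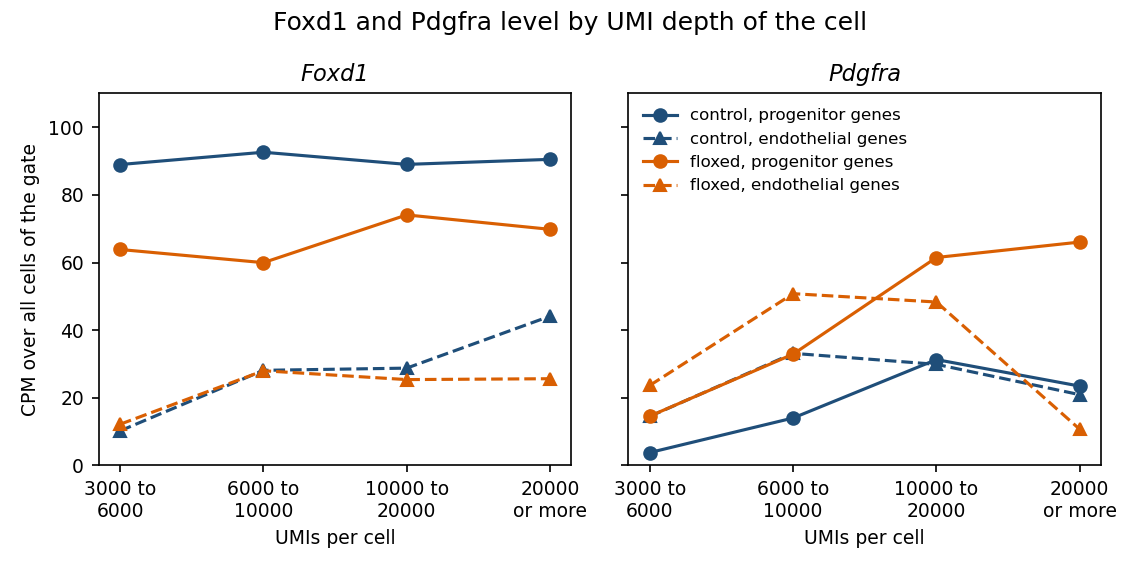
Foxd1 (left) and Pdgfra (right) CPM over all cells of a gate (vertical axis) by UMIs per cell (horizontal axis). Circles and solid lines are cells with at least 3 progenitor genes, triangles and dashed lines cells with at least 3 endothelial genes, control in blue and floxed in orange; the deepest floxed endothelial bin has 17 cells. Foxd1 in progenitor-gene cells runs level and above the endothelial-gene cells, while Pdgfra in progenitor-gene cells is lowest in the shallowest bin.

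Gates for other cell types were measured in the same way. Over all depths, Foxd1 stood at 26.5 and 18.5 CPM (control and floxed) in endothelial-gene cells, 32.6 and 11.8 CPM in macrophage-gene cells, 14.7 and 11.6 CPM in ureteric bud-gene cells and 19.2 and 11.5 CPM in proximal tubule-gene cells. It was highest in podocyte-gene cells, at 161 and 237 CPM. Pdgfra in those 5 gates ranged from 13.6 to 29.0 CPM in the control and from 10.0 to 37.9 CPM in the floxed library, against 23.3 and 44.2 CPM in progenitor-gene cells.

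The proportion of Foxd1 to Pdgfra is a description for members and stroma-only cells, which the rule chose by these genes. Members held 2230 Foxd1 and 574 Pdgfra UMIs in the control, a UMI ratio of 3.89 (3.54 to 4.27). In the floxed library they held 717 and 476 UMIs, a ratio of 1.51 (1.34 to 1.69). The ratio was 0.635 (0.606 to 0.665) and 0.419 (0.397 to 0.443) in stroma-only cells, and 1.07 (0.959 to 1.19) and 0.560 (0.457 to 0.686) in endothelial-gene cells. Progenitor-gene cells outside the rule hold no UMI of either gene, so the members' ratio is also that of all progenitor-gene cells, whatever their stroma UMIs. It lay above the ratio of endothelial-gene cells in each library. Podocyte-gene cells had ratios of 6.71 and 6.25.

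Foxd1 in progenitor-gene cells was also compared between progenitor states. Its level was 83.1, 89.9 and 101 CPM in control cells with 3, 4 and 5 progenitor genes and 54.6, 71.7 and 81.8 CPM in floxed cells. The intervals of 3 and 5 genes did not overlap in either library, while those of 3 and 4 genes overlapped in the control. Median depth also rose from 3 to 5 genes, from 8336 to 14847.5 UMIs in the control and from 6977 to 9431 UMIs in the floxed library. Control cells without a Wnt4 UMI had 106 CPM of Foxd1 (97.5 to 115) and those with one 86.0 CPM (81.9 to 90.2). In the floxed library these values were 68.9 CPM (60.2 to 78.6) and 65.6 CPM (60.0 to 71.7), with overlapping intervals. Cells with and without a mitosis UMI had 91.2 and 88.5 CPM of Foxd1 in the control and 65.3 and 68.4 CPM in the floxed library.

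Across all genes, members and progenitor-only cells differed little. A gene was counted where it reached 25 CPM in the higher group and its ratio lay beyond 1.5-fold in both libraries. Of 4938 genes 86 were higher in members (1.74%) and 6 lower (0.122%). The largest excess was in Ogn, a small leucine-rich proteoglycan of connective tissue, at 43.6 CPM in control members against 13.4 CPM and 58.1 against 13.7 CPM in the floxed library. Ecm1, Col1a1, Col14a1, Col3a1, Col1a2, Dcn, Penk and Meis1 were among the next largest, with ratios between 2.21 and 2.91. Ly6a, a surface antigen, was lower, at 67.7 CPM in control members against 149 CPM and 60.9 against 113 CPM in the floxed library.

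Against stroma-only cells, 299 of 5349 genes were higher (5.59%) and 517 lower (9.67%). After Six3, the largest excess was in the cartilage collagen gene Col2a1, at 84.0 CPM in control members against 4.81 CPM and 73.2 against 4.44 CPM in the floxed library. The lowest ratio was in Aox3, an aldehyde oxidase, at 4.50 against 25.04 CPM in the control and 11.1 against 48.6 CPM in the floxed library. Vegfd, Angpt1, Ndufa4l2 and Kcnj8, genes of stromal and mural cells, were also lower in members.

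The Foxd1-only members differed from progenitor-only cells in other genes. Of 4860 genes 25 were higher (0.514%) and 15 lower (0.309%), and none of the 11 measured stroma genes outside the rule was among them. Mki67, a marker of dividing cells, stood at 208 CPM in control Foxd1-only members against 105 CPM, and at 168 against 84.2 CPM in the floxed library. Nusap1, a spindle protein, stood at 114 against 60.0 CPM and 86.1 against 35.7 CPM. In all, 7 of 9 measured mitosis genes passed. Slc12a1, the sodium-potassium-chloride cotransporter of the loop of Henle, was lower, at 15.5 against 97.7 CPM in the control and 16.1 against 47.7 CPM in the floxed library, as were the tubule genes Fxyd2, Spp1 and Atp1b1.

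Depth moves with these mitosis genes. The 10 mitosis genes summed to 1354 and 1040 CPM in Foxd1-only members, 1242 and 907 CPM in Pdgfra-bearing members, 801 and 566 CPM in progenitor-only cells and 1256 and 933 CPM in stroma-only cells. At 3000 UMIs, a Mki67, Top2a or Cenpf UMI was present in 45.1% of control members (42.3 to 47.9) and 34.8% of progenitor-only cells (31.4 to 38.2). The floxed shares were 31.6% (27.8 to 35.5) and 29.0% (25.5 to 32.8), with overlapping intervals. Unthinned, they were 66.4% and 55.4% in the control and 54.0% and 43.3% in the floxed library. The part of the cell cycle in the depth of members was not tested beyond the values in cells without a mitosis UMI.

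The Pdgfra-bearing members were higher than progenitor-only cells in more genes. Of 5127 genes 271 were higher (5.29%) and 8 lower (0.156%), with 11 of 14 measured stroma genes outside the rule, 4 of 9 mitosis genes and 2 of 2 mural genes among the higher. Ogn stood at 101 CPM in control Pdgfra-bearing members against 13.4 CPM and at 93.5 against 13.7 CPM in the floxed library. Hic1, a transcriptional repressor of mesenchymal cells, stood at 45.6 against 6.11 CPM and 44.3 against 7.39 CPM. Ddr2, a collagen receptor, stood at 31.4 against 3.85 CPM and 40.2 against 7.39 CPM. Dnm3os, Ntng1, Col6a1, Col6a2, Ecm1 and Fbln5 were also among the 10 largest.

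Markers of other cell types, summed over 5 genes each, differed from progenitor-only cells in both directions. Endothelial markers stood at 141 CPM in control members and 178 CPM in progenitor-only cells, and at 86.1 and 103 CPM in the floxed library. Macrophage markers stood at 61.3 against 64.3 CPM and 54.9 against 47.3 CPM. Proximal tubule markers stood at 46.7 against 92.8 CPM and 27.1 against 30.4 CPM. Ureteric bud markers were above progenitor-only cells in both libraries, at 50.99 against 41.8 CPM and 67.6 against 50.4 CPM. Mural cell markers were also above, at 247 against 189 CPM in the control and 260 against 145 CPM in the floxed library. By kind they stood at 161 and 132 CPM in Foxd1-only members, 432 and 390 CPM in Pdgfra-bearing members and 885 and 683 CPM in stroma-only cells. Erythroid markers were lower in members than in progenitor-only cells, at 978 against 1989 CPM in the control and 5149 against 8752 CPM in the floxed library. Podocyte markers summed to 85.9 against 60.9 CPM in the control and 60.9 against 38.4 CPM in the floxed library, with 3 of 5 genes and 1 of 5 having an interval above progenitor-only cells. Of these, Podxl stood at 22.0 CPM in control members against 20.6 CPM in progenitor-only cells, and at 5.98 against 4.22 CPM in the floxed library. Nphs1 stood at 8.24 against 3.85 CPM in the control and 4.32 against 2.32 CPM in the floxed library.

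The final comparison set floxed members against control members. A gene was counted where it reached 25 CPM in the higher library and the interval of its ratio lay wholly beyond 1.5-fold. Of 5544 genes, 109 were higher in floxed members (1.97%) and 62 lower (1.12%). In progenitor-only cells 88 of 5334 genes were higher (1.65%) and 70 lower (1.31%), and in stroma-only cells 80 of 5579 were higher (1.43%) and 110 lower (1.97%). Of the 109 higher genes, 58 were also higher in progenitor-only cells (53.2% of the 109 and 65.9% of the 88) and 41 in stroma-only cells (37.6% of the 109 and 51.25% of the 80), while 38 were in neither. Of the 62 lower genes, 35 were also lower in progenitor-only cells (56.5% of the 62 and 50% of the 70) and 38 in stroma-only cells (61.3% of the 62 and 34.5% of the 110), while 15 were in neither. Median-of-ratios scaling gave 88 higher and 79 lower.

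The targeted genes came first. Tet3, which lies on chromosome 6, stood at 98.4 CPM in control members and 46.6 CPM in floxed members, 2.11-fold lower. In progenitor-only cells it stood at 81.0 and 39.7 CPM, 2.04-fold lower, and in stroma-only cells at 58.8 and 43.9 CPM, 1.34-fold lower. Among members Tet3 stood at 103 and 42.1 CPM in Foxd1-only cells, a ratio of 0.407 (0.337 to 0.489), and at 87.7 and 51.3 CPM in Pdgfra-bearing cells, a ratio of 0.585 (0.484 to 0.703). The interval of Foxd1-only members overlapped that of progenitor-only cells (0.414 to 0.578) and not that of stroma-only cells (0.681 to 0.817). That of Pdgfra-bearing members overlapped both.

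Tet2 stood at 32.0 CPM in control and 30.7 CPM in floxed members, and Tet1, which carries no floxed allele here, at 32.7 and 31.4 CPM. Both counting intervals of the ratio contained 1. The 3′ tags of this chemistry need not lie in the deleted exons, so these levels do not check the deletion. Of 6 measured genes of DNA methylation, Tet3 alone passed.

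Among genes outside the lists, Il33, an alarmin cytokine, stood at 53.0 CPM in control and 185 CPM in floxed members, 3.49-fold higher. Its ratio was 3.51 in progenitor-only and 1.92 in stroma-only cells. Rnase4, a secreted ribonuclease, stood at 10.9 and 49.8 CPM in members, 4.58-fold higher, with ratios of 5.86 and 1.42 in the respective single-identity groups. Ralyl, an RNA-binding protein gene, had 1 control and 168 floxed UMIs in members, a ratio of 477 (84.5 to 18968), 0 and 180 UMIs in progenitor-only cells, and 0 and 11 UMIs in stroma-only cells. For Il33 and Rnase4 the members' ratio was nearer to that of progenitor-only than of stroma-only cells.

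Tbx3, a T-box factor, was the 1 named gene with a ratio in members whose interval lay wholly above those of both single-identity groups. It stood at 8.88 CPM in control and 27.9 CPM in floxed members, a ratio of 3.14 (2.51 to 3.94), against 1.53 (1.01 to 2.31) in progenitor-only and 1.41 (1.28 to 1.55) in stroma-only cells. In Foxd1-only members it stood at 5.30 and 16.8 CPM and in Pdgfra-bearing members at 16.6 and 39.2 CPM. The ratios within these subsets, 3.17 (2.14 to 4.66) and 2.36 (1.78 to 3.14), lay above that of stroma-only cells, but each interval overlapped that of progenitor-only cells. Those counts are small, at 152 control and 168 floxed UMIs in all members.

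Some extreme ratios belong to genes with near-identical copies, or to genes whose UMIs sit largely in single cells. Tpm3-rs7 (3.21 and 85.5 CPM) and Eif3j2 (5.49 and 31.5 CPM) were higher and Rnaset2b (25.6 and 1.66 CPM) lower. These shifts were of a like degree in members and both other groups. Each of these genes has a near-identical copy in the genome, so the assignment of its reads is uncertain. The part of read assignment in these ratios was not tested. AY036118 stood at 53.3 and 189 CPM. Sprr2f, a small proline-rich protein gene, stood at 9.46 and 40.0 CPM, and 1 cell held 49.4% of its control and 41.5% of its floxed UMIs. Of 568 control UMIs of Sprr1a 559 came from 1 cell, and the 7 floxed UMIs cannot be set against them.

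The lower genes included immediate-early genes. Fos stood at 935 CPM in control and 319 CPM in floxed members, 2.93-fold lower, and at 749 and 270 CPM in progenitor-only and 912 and 390 CPM in stroma-only cells. Egr3, a zinc finger factor of the same response, stood at 86.9 and 25.2 CPM, 3.44-fold lower. Of 8 measured genes of this response, which also follows tissue dissociation, 5 were lower and none higher, with a median log2 ratio of -0.97 against 0.04 over all genes tested. The medians were -0.83 in progenitor-only and -0.76 in stroma-only cells. Ifi27l2a, an interferon-induced gene, was 3.96-fold lower in members, the nuclear RNA Neat1 3.02-fold, the membrane protein gene Myof 3.17-fold and the RNA host gene Snhg9 3.32-fold.

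**Figure D5:**
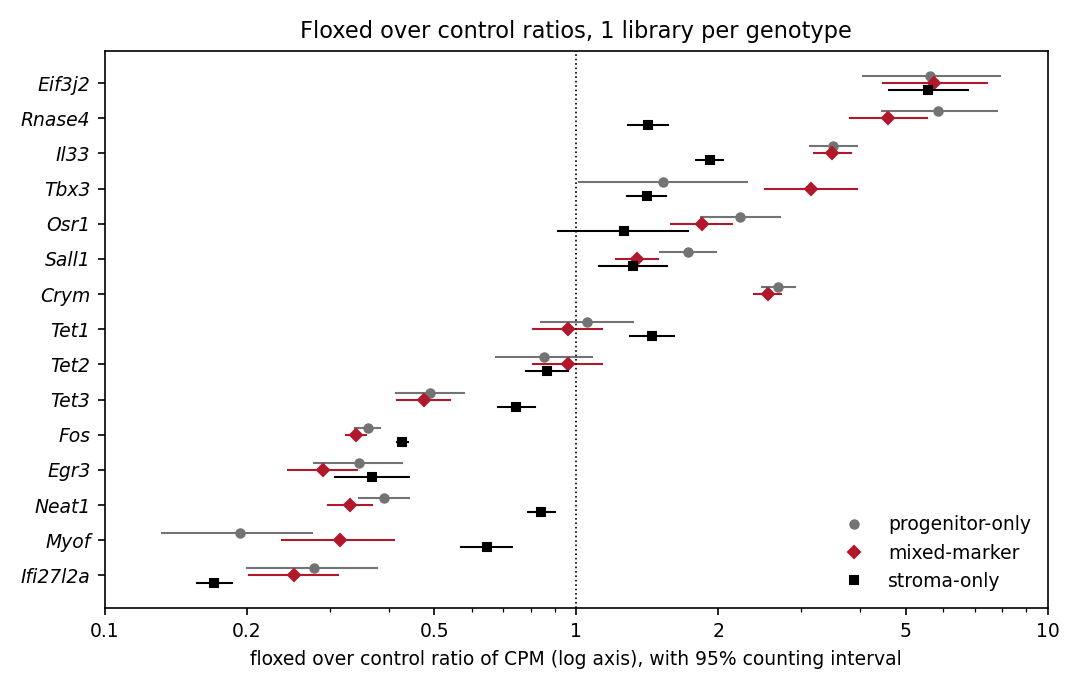
Floxed over control ratio of CPM with its 95% counting interval (horizontal log axis) for 15 genes (vertical axis) in progenitor-only cells (grey circles), mixed-marker cells (red diamonds) and stroma-only cells (black squares); Crym, a rule gene, has no stroma-only value. For Rnase4, Il33, Tet3, Neat1 and Myof the diamond lies nearer to the grey circle than to the black square, and Tbx3 lies to the right of both.

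Taken over all members, most measured stroma genes had higher values in the floxed than in the control library, and few passed the rule of size. Of 12 measured stroma genes outside the rule 2 were higher (Penk and Tcf21), against 1.97% of all genes, and none lower. The log2 ratio was above 0 in 11 of the 12, with a median of 0.35, against 3090 of 5544 and a median of 0.04 over all genes. Penk stood at 60.8 and 62.8 CPM in Foxd1-only members and at 374 and 503 CPM in Pdgfra-bearing members, a ratio of 1.75 over all members but 1.03 and 1.34 within the subsets. Tcf21 had ratios of 1.83 over all members and 1.43 and 1.47 within them. The larger share of Pdgfra-bearing cells among floxed members moves with these ratios, and neither subset's ratio passed 1.5-fold. Penk also had ratios of 1.53 in progenitor-only and 1.32 in stroma-only cells. Tcf21 was likewise higher in the floxed cells of both groups, at the levels given above. Within Pdgfra-bearing members the direction was mixed. Col1a1, Col1a2, Col3a1 and Dcn had floxed over control ratios of 0.739, 0.809, 0.868 and 0.661 there, each with an interval below 1. Meis1, Sfrp1 and Col14a1 had ratios of 1.05, 1.02 and 1.11 there, with intervals that contained 1. In Foxd1-only members the ratios of Col1a1, Col1a2, Col3a1 and Dcn were 1.12, 1.09, 1.18 and 0.959. The part of the share of Pdgfra-bearing cells in the members' ratios was not tested.

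Of 12 measured progenitor genes outside the rule, Osr1, a factor of the intermediate mesoderm, was higher, at 26.8 CPM in control and 49.3 CPM in floxed members, and none was lower. The log2 ratio was above 0 in 9 of the 12, with a median of 0.23. The ratio of Osr1 was 1.90 in Foxd1-only and 2.00 in Pdgfra-bearing members. Crym, a thyroid hormone-binding protein gene used by the rule, stood at 108 and 275 CPM in members and at 129 and 345 CPM in progenitor-only cells. Crym was detected in 72.4% of control and 90.4% of floxed members, and Cited1 in 79.5% and 64.0%, so the rule did not pick the 2 libraries through the same genes to the same degree. Foxd1 stood at 130 and 119 CPM and Pdgfra at 33.5 and 79.0 CPM in members, as the rule and the mix of subsets set them. Erythroid markers were higher in floxed members in 4 of 4 measured genes, with a median log2 ratio of 2.41, and higher in progenitor-only (2.14) and stroma-only cells (1.60) too.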

How the data were processed

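Whole newborn kidneys were dissociated and profiled with droplet 3′ version 3 chemistry, per the labels' protocols. The authors deposited 1 gene by barcode matrix of raw UMI counts per library, over 31053 genes. Per the submitters' processing notes Cell Ranger 6.0.2 and the mm10 build were used, while the file headers name version 6.0.1. No annotation release is given in the sources used here. The members and gene lists were chosen with earlier results of these data known, and the split by Pdgfra was added after the data were seen.

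Counts were summed over the cells of a group and divided by their total UMIs (CPM). Ratios have exact conditional binomial intervals, sums exact Poisson intervals, shares Clopper-Pearson intervals and medians order-statistic intervals, all at 95% and covering counting error alone. No test was made, since each genotype had 1 library. Named genes were all list members, the 8 highest and 8 lowest floxed over control ratios, and the 10 (stroma-only comparison 5) most extreme ratios between groups each way. Mitochondrial, ribosomal, haemoglobin, sex-linked and predicted genes were left out of the named ones. Thinning drew 3000 UMIs per cell without replacement and left shallower cells out (2 control members, 0 floxed members). Doublets were scored with scanpy 1.11.5. Python 3.11.15, numpy 2.4.6, scipy 1.17.1 and pandas 2.3.3 were used. RefSeq coordinates (GRCm38) were found by symbol for all 159 listed or named genes. Some genes of these lists are not reported here. The ratio intervals and the thinning were tested on simulated data.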

Additional observations from a re-analysis of the deposited data

How the results depend on the processing

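With 1 library per genotype, depth limits these values: at the members' median, 1 UMI decides many calls. No paired analysis was possible because each genotype had 1 library and no test was made. The values below are control and floxed; the cause of each shift was not tested. The share of members among progenitor-gene cells was 34.0% and 22.2% with at least 2 stroma UMIs, 65.8% and 53.9% with at least 4 progenitor genes, 55.6% and 38.2% with Foxd1 alone, 16.6% and 20.0% with Pdgfra alone, and 27.3% and 23.0% after thinning. Depth over progenitor-only cells was 1.70 and 1.62 times with at least 2 stroma UMIs, 1.79 and 1.62 with Pdgfra alone, 1.15 and 1.15 without mitosis UMIs, and 1.02 and 1.02 after thinning. It was 1.46 in the control with at least 4 progenitor genes, 1.46 in the control without the Lhx1 condition and 1.27 in the floxed library without the top 8% of doublet scores. The stroma position was 0.225 and 0.369 with at least 2 stroma UMIs, 0.144 and 0.251 with at least 4 progenitor genes, 0.481 and 0.460 with Pdgfra alone, 0.146 and 0.240 without the top 8% of doublet scores, and 0.204 and 0.291 against stroma-only cells with up to 2 progenitor genes. In the control it was 0.192 without the Lhx1 condition and 0.191 without the podocyte condition. Over 9 settings per library the Foxd1-only position lay between -0.0055 and 0.021, and over 10 the Pdgfra-bearing position between 0.460 and 0.704. Of these values, 4 of 18 and 12 of 20, respectively, lay outside the counting interval of the main setting. The rule applied after thinning was not among these settings. It gave positions of 0.0865 and -0.0466 for Foxd1-only calls, outside that range, and 0.375 and 0.462 for Pdgfra-bearing calls. Counts of genes past the rule of size were 199 higher and 113 lower at a minimum of 10 CPM, and 26 and 18 beyond 2-fold. Of 252 gene ratios recomputed, 216 stayed within their counting interval, 35 moved outside it and 1 changed sign: the log2 ratio of Foxd1, a rule gene, was 0.092 with Foxd1 alone in the rule.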
